A study of Mus musculus with 8 samples.

Results

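The Ras GTPases and Ras regulators described here were 9 genes, Hras, Nras, Rras, Rras2, Mras, Nf1, Rasa1, Rasal1 and Rasgrp1, out of 24419 gene symbols in the count table. They were taken by symbol, all 9 were found, and all 9 were among the 15875 genes with enough counts to be tested. They were followed through the mouse endometrial cancer models named TPM, TPMCa, TPMR1 and TPK, 4 in all, each with 2 bulk RNA libraries. All models started from uterus organoids of CAG-Cas9-EGFP female mice aged 8 to 10 weeks, which carry Cas9 and EGFP under a broadly active promoter, and the edited organoids were put into the left uterus of female nude mice. Every model carried an sgRNA against Trp53. TPM and the models built on it also overexpressed Myc from a retroviral cDNA linked to luciferase. TPMCa, called TPMPik3ca in the labels, further carried a Pik3ca E545K cDNA, and TPMR1, called TPMPik3r1, an sgRNA against Pik3r1. TPK carried no Myc construct, and the remaining engineered genes of the models are not covered here. The hosts, aged 8 weeks, lack a thymus but keep B cells and innate immune cells, and the labels describe tumor organoids whereas the methods describe tumor tissue taken after transplantation.

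Ras proteins are small GTPases that switch between an inactive form bound to GDP and an active form bound to GTP. Guanine nucleotide exchange factors such as Rasgrp1 load them with GTP, and GTPase-activating proteins such as Nf1, Rasa1 and Rasal1 speed up hydrolysis and so switch them off. Active Ras binds effectors that include the Raf kinases and the catalytic subunits of PI3K, and both the Ras and the PI3K pathways are often altered in endometrial cancer. The switch works on the protein, so that a transcript level does not measure Ras activity.

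The libraries held 15748396 to 26943611 counts each, and a floor of 3 counts corresponded to 0.116 to 0.198 CPM (counts scaled to a common library size with the TMM factors of edgeR), a limit that covers counting error only. Trp53, targeted in every model, was at 106 to 131 CPM in TPM and 70.2 to 78.5 CPM in TPMCa. It was at 33.2 to 55.1 CPM in TPMR1 and 36.92 to 38.35 CPM in TPK. Against TPM, TPMR1 was lower in Trp53 by a log2 fold change of -1.42 ± 0.31 (SE; adjusted p = 0.0478, edgeR). TPMCa, at -0.67, and TPK, at -1.655, did not pass (adjusted p = 0.249 and 0.653, edgeR). Pik3r1 was at 51.3 to 100 CPM in TPMR1. Its level was 99.6 to 188 CPM in TPM and 78.1 to 80.9 CPM in TPMCa, where it was not targeted. Pik3ca was at 83.3 to 89.9 CPM in TPMCa, which carries its cDNA, and at 60.9 to 76.6 CPM in TPM, a log2 difference of 0.33 ± 0.24 (SE) that did not pass (adjusted p = 0.436, edgeR). Edits by sgRNA need not lower a transcript. The labelled tissue was checked with 6 epithelial markers, Epcam, Cdh1, Krt7, Krt8, Krt18 and Krt19. Their summed level was 2941 to 5498 CPM in TPM and 3236 to 4963 CPM in TPK, but 23.7 to 73.3 CPM in TPMCa and 6.47 to 27.4 CPM in TPMR1, in which Epcam was at 0.389 to 0.813 CPM. Replicate 1 of TPMR1 stood apart, with 5078 CPM over 5 steroidogenic cell markers against 446 CPM in replicate 2 of TPMR1 and 6.39 to 22.7 CPM in the other 3 models. Replicate 2 of TPMCa held 149 CPM over 10 T, NK and B cell markers against 0.774 to 14.1 CPM in the other libraries, and replicate 2 of TPK held 563 CPM of the skeletal muscle actin Acta1. In such bulk samples, fewer cells of a type and less RNA per cell cannot be told apart.

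One quasi-likelihood fit of edgeR over all 8 libraries gave each gene a test of any difference among the 4 models and 6 comparisons, with p-values adjusted by the Benjamini-Hochberg method over all tested genes and a call at an adjusted p under 0.05. Hras and Rasal1 were the only members called in any of them. In the test of any difference, 1 of 9 members was called, Hras, against 7.32% of all genes. In TPK against the mean of TPMCa and TPMR1, 2 of 9 were called, Hras and Rasal1, both higher, against 14.4% of all genes in either direction. In TPM against the same mean, Rasal1 was called, higher, against 8.89% of all genes. In TPMR1 against TPM, Rasal1 was called, lower, against 5.58% of all genes. In TPMCa against TPM, 0 of 9 were called against 3.48% of all genes, with 3 of 9 at an unadjusted p under 0.05 beside 22.1% of all genes, and 3 called by DESeq2 beside 14.2% of all genes. In TPK against TPM, 0 members and 0.0% of all genes were called, with 0 members and 1138 genes at an unadjusted p under 0.05, and DESeq2 called 245 genes, none a member. In TPMR1 against TPMCa, 0 members and 0.0% of all genes were called, with 1 member and 1867 genes at an unadjusted p under 0.05, and DESeq2 called 804 genes, of which 1, Rasgrp1, was a member. With so few members, none of these counts can be set apart from the share of all genes. The comparisons share libraries and are not independent of each other, and a permutation test of 2 libraries against 2 cannot reach a p of 0.05, so none was run.

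Counted without a test, the libraries of the groups did not overlap for 6 of 9 members in TPMCa against TPM, while 61.3% of all genes did not overlap. The count was 7 of 9 in TPMR1 against TPM beside 52.9% of all genes, and 5 of 9 in TPK against TPM beside 47.9%. Against TPMCa and TPMR1 together, it was 5 of 9 for TPM beside 34.9% of all genes and 4 of 9 for TPK beside 40.8%.

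**Figure D1:**
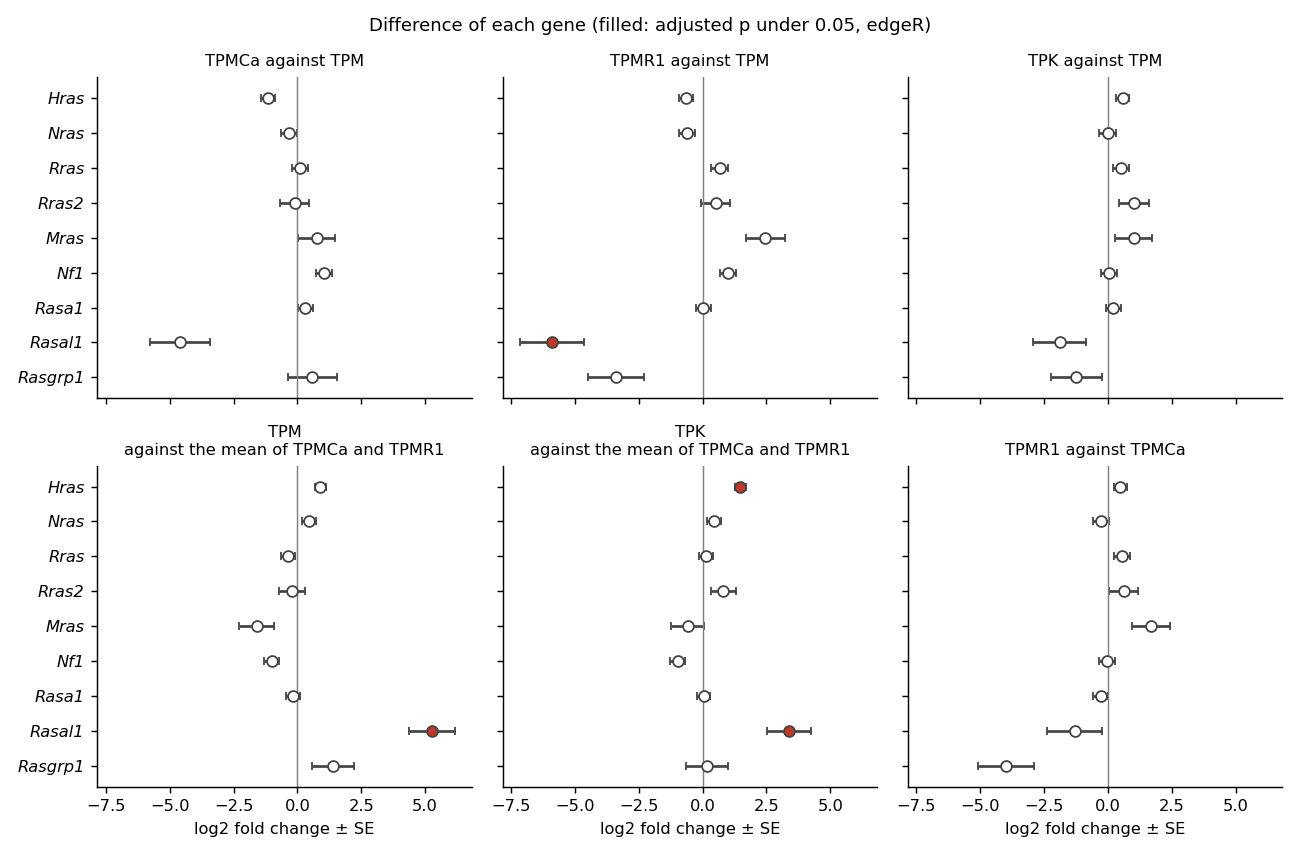
Log2 fold change of each of the 9 genes (points) with its standard error (bars) in the 6 comparisons, from edgeR with 2 libraries per model. Filled points had an adjusted p under 0.05: Rasal1 in 3 comparisons, from -5.91 in TPMR1 against TPM to 5.26 in TPM against the joint mean of TPMCa and TPMR1, and Hras at 1.47 in TPK against that mean.

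Of the classical Ras genes, Hras, on chromosome 7 from 141189105 to 141194005 (GRCm38, minus strand), was higher in TPK than in TPMCa and TPMR1. It encodes a Ras protein that is moved between the plasma membrane and the Golgi by palmitoylation. Hras was at 172 and 147 CPM in TPK, 124 and 89.6 CPM in TPM, 77.0 and 59.1 CPM in TPMR1, and 48.8 and 48.0 CPM in TPMCa. Both TPK libraries were the highest, both TPM libraries came next, and no model overlapped another. The mean level (± SD, n = 2 for each model) was 159 ± 17.6 CPM in TPK, 107 ± 24.3 CPM in TPM, 68.0 ± 12.7 CPM in TPMR1 and 48.4 ± 0.522 CPM in TPMCa. In TPK, Hras exceeded the mean of TPMCa and TPMR1 by a log2 fold change of 1.47 ± 0.22 (SE), or 2.77-fold (adjusted p = 0.00941, edgeR).

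Hras also differed among the 4 models (adjusted p = 0.0382, edgeR). TPM exceeded the mean of TPMCa and TPMR1 by 0.90 ± 0.22 (SE, log2), which did not pass the test (adjusted p = 0.0568, edgeR), and TPMCa against TPM, at -1.14 ± 0.27 (SE, log2), did not pass it either (adjusted p = 0.0744, edgeR). DESeq2 called Hras in both (adjusted p = 0.0091 and 0.0045, DESeq2). TPMR1 against TPM gave -0.65 ± 0.27 (SE, log2; adjusted p = 0.208, edgeR), and TPK against TPM gave 0.58 ± 0.27 (SE, log2; adjusted p = 0.705, edgeR). The call of Hras in TPK against the mean was lost without replicate 1 of TPK (adjusted p = 0.0725, edgeR) or replicate 2 (adjusted p = 0.0561, edgeR), and its call in the test of any difference was lost without any 1 of the 6 TPM, TPMCa and TPK libraries (adjusted p = 0.0838 to 0.158, edgeR). Conversely, Hras passed in TPMCa against TPM without replicate 1 (adjusted p = 0.0433, edgeR) or replicate 2 of TPMR1 (adjusted p = 0.0437, edgeR), and in TPM against the mean without replicate 1 of TPMR1 (adjusted p = 0.0441, edgeR).

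Nras, the other classical Ras gene measured, on chromosome 3 from 103058285 to 103067914 (GRCm38, plus strand), encodes a Ras protein often mutated in melanoma and leukemia. Its highest and lowest libraries were 2.25-fold apart, against 3.57-fold for Hras. The 2 libraries of a model were further apart for Nras than for Hras in TPMR1 (1.89-fold against 1.30-fold) and TPMCa (1.072-fold against 1.015-fold). They were closer in TPM (1.03-fold against 1.38-fold) and TPK (1.06-fold against 1.17-fold). Nras was at 113 and 117 CPM in TPM, 118 and 111 CPM in TPK, 88.6 and 94.9 CPM in TPMCa, and 52.4 and 99.2 CPM in TPMR1. The TPM and TPK libraries overlapped each other and lay above all 4 libraries of the other models, of which replicate 1 of TPMR1 was the lowest. No comparison of Nras passed the test, and the one with the lowest unadjusted p was TPMR1 against TPM, at -0.60 ± 0.32 (SE, log2; adjusted p = 0.318, edgeR). Without replicate 2 of TPMR1, which leaves replicate 1 alone in that model, the difference grew to -1.14 and passed (adjusted p = 0.0432, edgeR), as did TPK against the mean of TPMCa and TPMR1, at 0.72 (adjusted p = 0.0483, edgeR). TPK against TPM differed by -0.01 ± 0.32 (SE, log2; adjusted p = 0.999, edgeR).

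The 2 classical genes are shown with the 250 bases before their RefSeq start sites (GRCm38.p6), since Hras differed among the models and Nras did not pass the test. Capitals mark GC boxes, the letters GGGCGG on either strand, which Sp1 family factors can bind. The Hras stretch, chr7:141194005-141194254 on the minus strand, held 3 GC boxes, and the Nras stretch, chr3:103058035-103058284 on the plus strand, held 2 that share 1 G. A GC box was present in 32.9% of 27025 such stretches, 1 per gene. Nras also held 1 E-box, CACGTG, a sequence bound by Myc and related factors, which 6.05% of the stretches held, and Hras held 0. Neither held TATAAA, which 13.0% of the stretches held. The share of G and C was 65.6% for Hras and 48.4% for Nras, beside a median of 52.0%. These matches describe the letters alone.
Hras: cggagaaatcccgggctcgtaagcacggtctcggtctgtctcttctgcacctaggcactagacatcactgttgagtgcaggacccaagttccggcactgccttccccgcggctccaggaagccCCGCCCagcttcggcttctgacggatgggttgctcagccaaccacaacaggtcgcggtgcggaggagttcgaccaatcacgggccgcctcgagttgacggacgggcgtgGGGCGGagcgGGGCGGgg
Nras: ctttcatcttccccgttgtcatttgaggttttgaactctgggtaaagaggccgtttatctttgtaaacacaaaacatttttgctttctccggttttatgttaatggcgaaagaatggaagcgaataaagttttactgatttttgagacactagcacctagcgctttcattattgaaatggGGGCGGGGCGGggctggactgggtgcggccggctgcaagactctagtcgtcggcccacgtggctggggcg

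The share of Hras in the reads of both classical genes does not depend on the scaling between libraries. It was 59.3% (95% Wilson interval 57.9 to 60.6) and 57.0% (55.4 to 58.5) in TPK, and 35.5% (33.5 to 37.5) and 33.6% (31.8 to 35.4) in TPMCa. It was 52.2% (50.7 to 53.8) and 43.4% (41.8 to 45.0) in TPM, and 59.5% (57.8 to 61.1) and 37.3% (35.6 to 39.1) in TPMR1. TPK lay above TPM and TPMCa in both libraries, while the 2 TPMR1 libraries spanned nearly the whole range, and replicate 1 of TPMR1, in which Nras was lowest, reached the level of TPK. By model, the share averaged (± SD, n = 2 for each model) 58.1 ± 1.65% in TPK, 47.8 ± 6.22% in TPM, 48.4 ± 15.7% in TPMR1 and 34.5 ± 1.35% in TPMCa. No test was run on the share, and the intervals cover counting error only. Per length, with each gene's reads divided by the length of its exons, Hras took 65.4 to 67.5% in TPK and 41.9 to 44.0% in TPMCa.

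**Figure D2:**
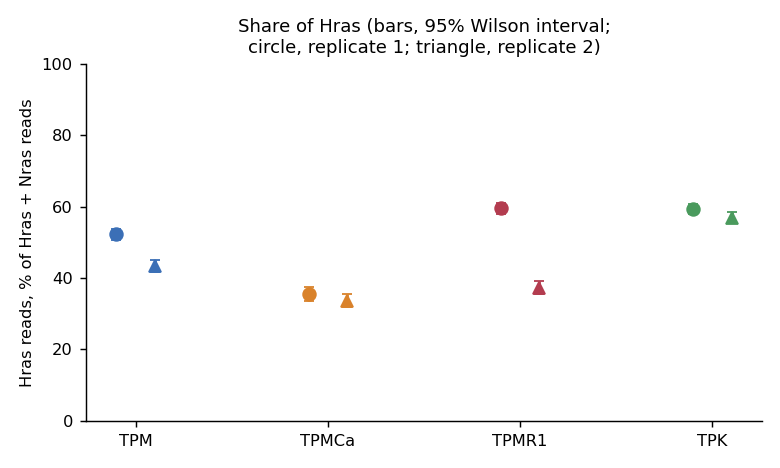
Hras reads as a percentage of Hras plus Nras reads in each library (points, circle for replicate 1 and triangle for replicate 2), with 95% Wilson intervals as bars. The TPMCa libraries sit at 35.5 and 33.6%, the TPK libraries at 59.3 and 57.0%, and the TPMR1 libraries at 59.5 and 37.3%.

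In the R-Ras subfamily no member passed an edgeR test with all libraries, though DESeq2 called Mras. The values in TPMR1 were set apart mainly by its replicate 1. Rras, on chromosome 7 from 45017961 to 45021647 (GRCm38, plus strand), encodes R-Ras, which promotes integrin activity and is abundant in vessels and smooth muscle. Rras was at 26.2 and 32.5 CPM in TPM, 35.7 and 27.1 CPM in TPMCa, 55.7 and 37.0 CPM in TPMR1, and 41.9 and 41.6 CPM in TPK. Both TPMR1 libraries lay above the TPM and TPMCa libraries. TPMR1 against TPM gave 0.66 ± 0.32 (SE, log2), the comparison of Rras with the lowest unadjusted p (adjusted p = 0.269, edgeR). The summed level of 5 smooth muscle markers was 34.6 CPM in replicate 1 of TPMR1, where Rras was highest, and 107 to 791 CPM in the other libraries. The part of smooth muscle or vessel cells in the Rras values was not tested.

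Rras2, on chromosome 7 from 114046782 to 114117781 (GRCm38, minus strand), encodes TC21, an R-Ras relative able to bind PI3K. Rras2 was at 20.7 and 21.3 CPM in TPM, 24.7 and 14.6 CPM in TPMCa, 43.9 and 16.1 CPM in TPMR1, and 56.0 and 29.2 CPM in TPK. Both TPK libraries lay above both TPM libraries, and the 2 TPMR1 libraries were 2.72-fold apart. TPK against TPM gave 1.02 ± 0.57 (SE, log2; adjusted p = 0.740, edgeR).

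Mras, on chromosome 9 from 99385420 to 99437381 (GRCm38, minus strand), encodes a GTPase that forms a phosphatase complex with Shoc2 and acts on Raf kinases. Mras was at 4.09 and 6.75 CPM in TPM, 10.96 and 7.29 CPM in TPMCa, 45.5 and 13.5 CPM in TPMR1, and 15.7 and 6.13 CPM in TPK. Replicate 1 of TPMR1 was the highest library and 3.37-fold above replicate 2, which lay above the TPM and TPMCa libraries but below replicate 1 of TPK. TPMR1 against TPM gave 2.44 ± 0.76 (SE, log2) and did not pass (adjusted p = 0.118, edgeR). DESeq2 called Mras in this comparison (adjusted p = 0.01145, DESeq2) and in the test of any difference (adjusted p = 0.0346, DESeq2). Without replicate 1 of TPMR1 the change was 1.32 (adjusted p = 0.324, edgeR), and without replicate 2, which leaves the high library alone, it was 3.07 and passed (adjusted p = 0.0342, edgeR). The steroidogenic markers Cyp11a1 and Star were at 3768 and 468 CPM in the library highest in Mras, and at 182 and 18.4 CPM in replicate 2 of TPMR1. In the other models Cyp11a1 was at 0.0659 to 8.46 CPM. Their part in the Mras values was not tested.

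**Figure D3:**
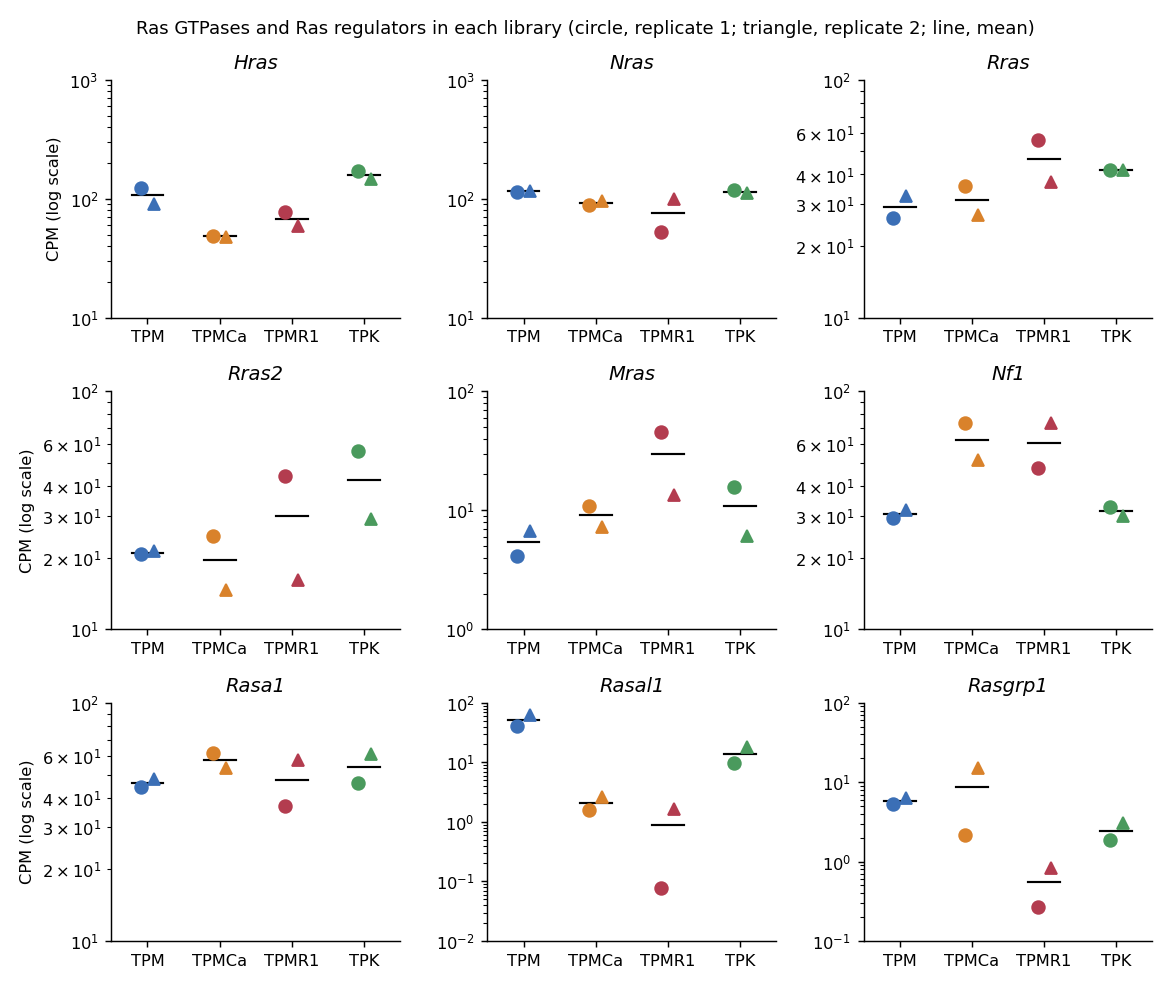
Level of each of the 9 genes in CPM on a log axis whose range differs between panels, by model, with circles for replicate 1, triangles for replicate 2 and a line at the mean of both libraries. Rasal1 spans 0.0774 to 61.5 CPM and Rasgrp1 0.271 to 15.3 CPM, whereas Rasa1 spans 36.9 to 61.7 CPM.

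Among the GTPase-activating proteins, Rasal1 had the largest differences of the 9 genes, and Rasa1 varied little. Nf1 differed the opposite way to Rasal1 by about a unit on the log2 scale, without passing in edgeR. Rasal1, on chromosome 5 from 120648812 to 120679597 (GRCm38, plus strand), encodes a GTPase-activating protein that responds to calcium. Rasal1 was at 41.5 and 61.5 CPM in TPM and 9.60 and 18.1 CPM in TPK, but at 1.58 and 2.62 CPM in TPMCa and 0.0774 and 1.67 CPM in TPMR1. Every TPM library was above every TPK library, and every TPK library above all 4 libraries of TPMCa and TPMR1. The lowest value rested on 2 counts (95% exact Poisson interval 0.00938 to 0.280 CPM), and the other TPMCa and TPMR1 values on 25 to 47 counts. Means (± SD, n = 2 for each model) were 51.5 ± 14.1 CPM in TPM, 13.9 ± 6.03 CPM in TPK, 2.10 ± 0.730 CPM in TPMCa and 0.873 ± 1.12 CPM in TPMR1.

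Rasal1 was 5.26 ± 0.91 (SE, log2), or 38.4-fold, higher in TPM than the mean of TPMCa and TPMR1 (adjusted p = 0.0172, edgeR), and 3.37 ± 0.87 (SE, log2), or 10.3-fold, higher in TPK than that mean (adjusted p = 0.0470, edgeR). In TPMR1 against TPM it fell by 5.91 ± 1.26 (SE, log2; adjusted p = 0.0466, edgeR). TPMCa against TPM, at -4.61 ± 1.17 (SE, log2), did not pass (adjusted p = 0.0869, edgeR), and neither did TPK against TPM, at -1.89 ± 1.03 (SE, log2; adjusted p = 0.736, edgeR), or the test of any difference (adjusted p = 0.0578, edgeR). DESeq2 called Rasal1 in TPMCa against TPM (adjusted p = 2.14e-04, DESeq2) and in the test of any difference (adjusted p = 6.49e-06, DESeq2). The sign of the 3 calls by edgeR held without each library, but their size moved with the TPMR1 libraries. Without replicate 2 of TPMR1 the log2 fold changes were 6.93 for TPM and 5.04 for TPK against the mean and -9.25 for TPMR1 against TPM, and without replicate 1 they were 4.78, 2.88 and -4.94. The call in TPM against the mean was lost without either TPM or either TPMCa library (adjusted p = 0.0743 to 0.0919, edgeR). The calls in TPMR1 against TPM and in TPK against the mean were each lost without any 1 of the 6 TPM, TPMCa and TPK libraries (adjusted p = 0.0813 to 0.156 and 0.0970 to 0.252, edgeR). Leaving out either TPMR1 library instead brought TPMCa against TPM past the threshold (adjusted p = 0.00706 and 0.00709, edgeR) and the test of any difference too (adjusted p = 0.0112 without replicate 1 and 0.00462 without replicate 2, edgeR). Without replicate 2 of TPMR1, Rasal1 was also called in TPMR1 against TPMCa, at -4.64 (adjusted p = 0.0306, edgeR), a comparison that then rests on the library with 2 counts.

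The epithelial markers, like Rasal1 and Hras, were higher in TPM and TPK than in TPMCa and TPMR1. Cdh1, which encodes E-cadherin, was at 698 to 792 CPM in TPM and TPK, 5.34 to 6.97 CPM in TPMCa and 0.271 to 0.500 CPM in TPMR1, and was 8.92 ± 0.32 (SE, log2) higher in TPM than the mean of TPMCa and TPMR1 (adjusted p = 2.71e-04, edgeR). All 6 epithelial markers were above 3 counts in every library. The summed level of 8 squamous markers, which include Krt5 and Krt14, was 4339 to 16580 CPM in TPM and 12900 to 20170 CPM in TPK against 7.79 to 21.3 CPM in TPMCa and 1.98 to 16.4 CPM in TPMR1. Within TPM and TPK the order differed, since Rasal1 was higher in TPM and Hras in TPK. Within TPM, Rasal1 was higher in replicate 2 (61.5 against 41.5 CPM), where the epithelial sum was lower (2941 against 5498 CPM). Hras was higher in TPMR1 (77.0 and 59.1 CPM) than in TPMCa (48.8 and 48.0 CPM), while Cdh1 was lower. The part of the epithelial content in the values of Rasal1 and Hras was not tested.

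Nf1, on chromosome 11 from 79339693 to 79581612 (GRCm38, plus strand), encodes neurofibromin, a GTPase-activating protein lost in neurofibromatosis. Nf1 was at 29.3 and 31.9 CPM in TPM and 32.6 and 29.9 CPM in TPK, and at 73.8 and 51.6 CPM in TPMCa and 47.5 and 73.9 CPM in TPMR1. All 4 libraries of TPMCa and TPMR1 lay above all 4 of TPM and TPK, which overlapped each other. TPM against the joint mean of TPMCa and TPMR1 gave -1.01 ± 0.29 (SE, log2; adjusted p = 0.0817, edgeR), and TPK against that mean gave -0.98 ± 0.29 (SE, log2; adjusted p = 0.0667, edgeR). Neither passed in edgeR with all libraries, while DESeq2 called both (adjusted p = 0.0138 and 0.0115, DESeq2). Without replicate 1 of TPMR1 both passed, at -1.16 (adjusted p = 0.0362, edgeR) and -1.12 (adjusted p = 0.0304, edgeR). TPMCa against TPM gave 1.04 ± 0.32 (SE, log2; adjusted p = 0.129, edgeR) and TPMR1 against TPM gave 0.99 ± 0.32 (SE, log2; adjusted p = 0.128, edgeR). DESeq2 called Nf1 in TPMCa against TPM (adjusted p = 0.0387, DESeq2) and in the test of any difference (adjusted p = 0.0132, DESeq2). It did not call Nf1 in TPMR1 against TPM (adjusted p = 0.0512, DESeq2). The summed level of 5 endothelial markers was 367 to 482 CPM in TPMCa, 146 to 599 CPM in TPMR1, 91.8 to 109 CPM in TPM and 50.2 to 141 CPM in TPK, and its part in the Nf1 values was not tested. Several genes, among them Evi2a, Evi2b and Omg, lie on the opposite strand within Nf1, and whether the counting used strand is not stated.

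Rasa1, on chromosome 13 from 85214780 to 85289130 (GRCm38, minus strand), encodes p120 RasGAP, which is recruited to activated growth factor receptors. Rasa1 was at 44.4 and 47.9 CPM in TPM, 61.7 and 53.2 CPM in TPMCa, 36.9 and 57.6 CPM in TPMR1, and 46.0 and 61.0 CPM in TPK. The highest and the lowest library were 1.67-fold apart, the smallest range of the 9 genes in CPM. Its log2 fold changes lay between -0.28 and 0.31 over the 6 comparisons, and the lowest unadjusted p was that of TPMCa against TPM, at 0.31 ± 0.30 (SE, log2; adjusted p = 0.570, edgeR). Rasa1 overlaps Ccnh on the opposite strand.

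Rasgrp1, the exchange factor, on chromosome 2 from 117279993 to 117343001 (GRCm38, minus strand), is activated by diacylglycerol and is best known from T cells. Rasgrp1 was at 5.36 and 6.23 CPM in TPM, 2.15 and 15.3 CPM in TPMCa, 0.271 and 0.834 CPM in TPMR1, and 1.89 and 3.03 CPM in TPK. Replicate 2 of TPMCa was the highest library and 7.11-fold above replicate 1, and both TPMR1 libraries, with 7 and 15 counts, were the lowest. TPMR1 against TPM gave -3.40 ± 1.08 (SE, log2; adjusted p = 0.125, edgeR) and TPMR1 against TPMCa gave -3.99 ± 1.11 (SE, log2; adjusted p = 0.376, edgeR), and neither passed in edgeR. DESeq2 called Rasgrp1 in both (adjusted p = 0.0098 and 0.0061, DESeq2) and in the test of any difference (adjusted p = 0.0159, DESeq2). TPMCa against TPM gave 0.59 ± 0.97 (SE, log2; adjusted p = 0.755, edgeR), and without replicate 2 of TPMCa it turned to -1.42 (adjusted p = 0.491, edgeR). In that replicate the B cell marker Cd79a was at 57.3 CPM, against 5.45 CPM in replicate 1, and the T cell marker Cd3e was at 5.23 against 1.01 CPM. In TPM, with the next highest Rasgrp1 levels, the 10 T, NK and B cell markers summed to 3.07 and 3.49 CPM, and 7 and 8 of them had 3 counts or fewer. The part of lymphocyte transcripts in the Rasgrp1 values was not tested.

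**Figure D4:**
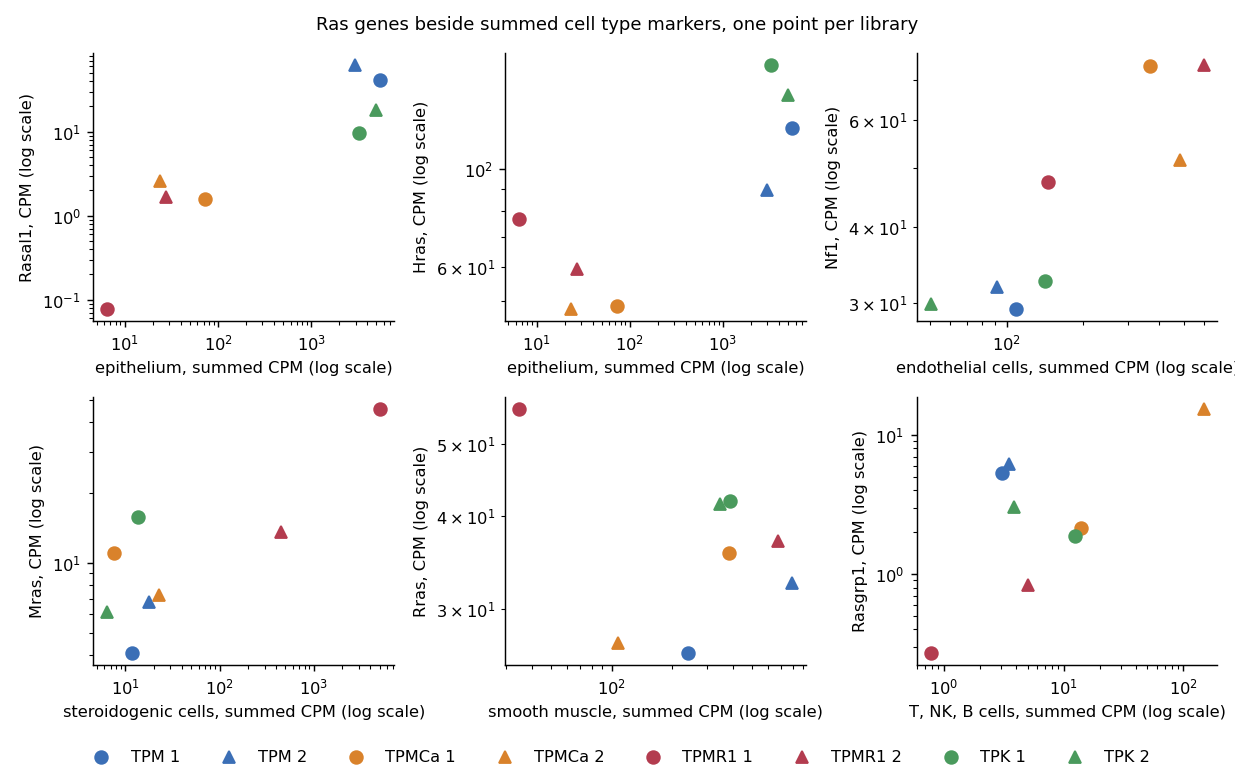
CPM of Rasal1, Hras, Nf1, Mras, Rras and Rasgrp1, each against the summed CPM of a marker list in the 8 libraries. Hras and Rasal1 are both set against the epithelial list. Both axes are on a log scale, with color for the model and circles and triangles for replicates 1 and 2. The list in each panel was chosen after its values were seen. Rasal1 is at 9.60 CPM or more in the 4 libraries with 2941 CPM or more of epithelial markers and at 2.62 CPM or less in the others.

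Compared per length, as RPKM (CPM per kilobase of exon), the transcripts of Rras, Hras and Nras held the 3 highest places in every model by the mean of its libraries, although in replicate 1 of TPMR1 Rras2, at 12.3 RPKM, lay above Nras, at 9.83 RPKM. In TPK, Hras was at 42.6 ± 4.71 RPKM (SD, n = 2), Rras at 37.2 ± 0.185 RPKM (SD, n = 2) and Nras at 21.5 ± 0.922 RPKM (SD, n = 2), with no overlap between neighbours. In TPM, Hras at 28.6 ± 6.50 RPKM (SD, n = 2) and Rras at 26.2 ± 3.98 RPKM (SD, n = 2) overlapped, and both lay above Nras at 21.6 ± 0.448 RPKM (SD, n = 2). In TPMCa the order was Rras at 28.0 ± 5.43 RPKM (SD, n = 2), Nras at 17.2 ± 0.841 RPKM (SD, n = 2) and Hras at 13.0 ± 0.140 RPKM (SD, n = 2), without overlap. In TPMR1, Rras led at 41.4 ± 11.8 RPKM (SD, n = 2), and Hras at 18.2 ± 3.39 RPKM (SD, n = 2) and Nras at 14.2 ± 6.20 RPKM (SD, n = 2) overlapped.

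The GTPase-activating proteins changed places between the models on this scale. Rasal1 held the fourth place in TPM, at 14.6 ± 3.99 RPKM (SD, n = 2), above Rasa1 at 6.31 ± 0.333 RPKM (SD, n = 2) and Nf1 at 1.93 ± 0.113 RPKM (SD, n = 2). In TPMCa, Rasal1 was the lowest of the 9 genes at 0.593 ± 0.206 RPKM (SD, n = 2), below Rasa1 at 7.84 ± 0.825 RPKM (SD, n = 2) and Nf1 at 3.96 ± 0.993 RPKM (SD, n = 2), although its libraries overlapped those of Rasgrp1 next to it. In TPMR1, Rasal1 at 0.247 ± 0.318 RPKM (SD, n = 2) and Rasgrp1 at 0.0986 ± 0.0711 RPKM (SD, n = 2) were the 2 lowest and overlapped. In TPK, Rasal1 at 3.92 ± 1.70 RPKM (SD, n = 2) lay below Rasa1 at 7.31 ± 1.45 RPKM (SD, n = 2).

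**Figure D5:**
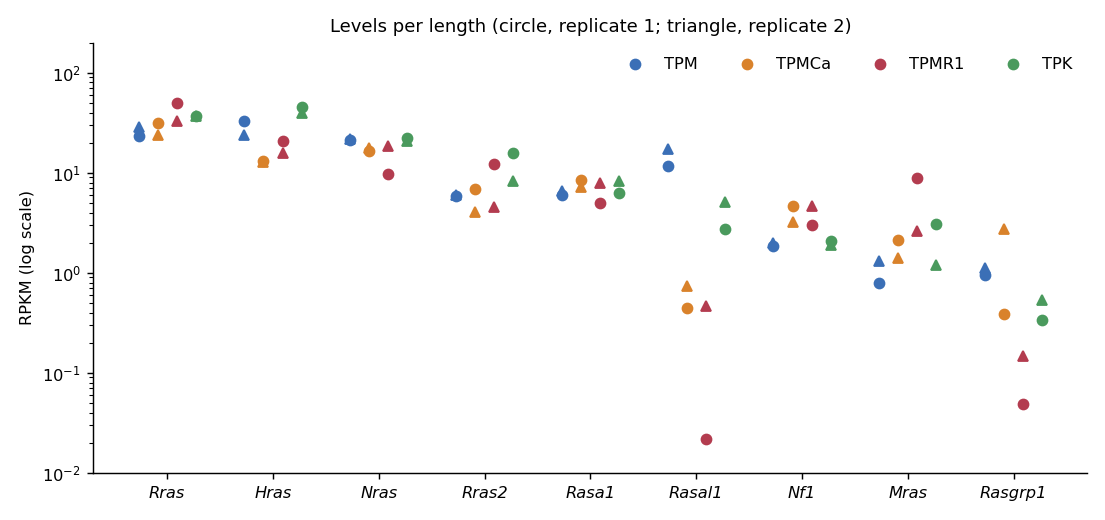
RPKM on a log axis of the 9 genes in the 8 libraries, ordered by the mean over all libraries, with color for the model and circles and triangles for replicates 1 and 2. Rras, Hras and Nras range from 9.83 to 49.7 RPKM, while Rasal1 ranges from 0.0219 to 17.4 RPKM.

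The other genes of the pathway were taken from 5 lists with 80 genes, of which 76 were tested. In the test of any difference, 3 of 76 were called, Rin1, Gem and Rasd1 (adjusted p = 0.0410, 0.0379 and 0.0202, edgeR), which is 3.95% beside 7.32% of all genes. Of 11 other exchange factors and adaptors, such as Sos1 and Grb2, and of 11 other GTPase-activating proteins and neurofibromin partners, such as Rasa2 and Spred1, 0 were called in any comparison. In TPM against the joint mean of TPMCa and TPMR1, 4 of 76 list genes were called higher and 2 lower, and in TPK against that mean 4 were higher and 4 lower, with 7.89 and 10.5% called in either direction beside 8.89 and 14.4% of all genes. In TPMCa against TPM 1 was called, higher, which is 1.32% beside 3.48% of all genes. In TPMR1 against TPM 1 was higher and 2 lower, together 3.95% beside 5.58% of all genes, and in TPK against TPM and TPMR1 against TPMCa 0 were called, as for all genes. The median log2 fold change of the 76 genes lay between -0.08 and -0.01 over the 6 comparisons, beside medians of all tested genes between -0.02 and 0.03.

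Of the 18 effectors and scaffolds tested, 4 were called in TPM and 3 in TPK against the joint mean of TPMCa and TPMR1, which is 22.2 and 16.7% beside 8.89 and 14.4% of all genes. Rin1, an effector that links Ras to Rab5 and Abl kinases, was at 65.3 and 55.9 CPM in TPM and 40.9 and 64.2 CPM in TPK, against 14.7 and 5.90 CPM in TPMCa and 8.91 and 13.1 CPM in TPMR1. All 4 libraries of TPM and TPK lay above the rest. Rin1 was 2.51 ± 0.41 (SE, log2) higher in TPM (adjusted p = 0.0137, edgeR) and 2.30 ± 0.41 (SE, log2) higher in TPK (adjusted p = 0.0151, edgeR) than the mean of TPMCa and TPMR1, and it fell by 2.46 ± 0.51 (SE, log2) in TPMR1 against TPM (adjusted p = 0.0442, edgeR). Tiam1, an exchange factor for Rac that binds Ras, averaged (± SD, n = 2 for each model) 174 ± 38.9 CPM in TPM, 125 ± 38.9 CPM in TPK, 33.1 ± 1.06 CPM in TPMCa and 41.3 ± 27.9 CPM in TPMR1. It was higher in TPM by 2.24 ± 0.41 (SE, log2; adjusted p = 0.0217, edgeR) and in TPK by 1.75 ± 0.41 (SE, log2; adjusted p = 0.0368, edgeR) than that mean.

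Rgl1, an exchange factor for Ral that binds Ras, went the other way. Rgl1 was at 58.3 and 55.9 CPM in TPMCa against 11.7 and 7.72 CPM in TPM, and rose by 2.55 ± 0.46 (SE, log2) in TPMCa against TPM (adjusted p = 0.0380, edgeR). TPM was 2.18 ± 0.42 (SE, log2) below the mean of TPMCa and TPMR1 (log2 fold change -2.18, adjusted p = 0.0257, edgeR). Rassf5, a Ras effector linked to the Hippo kinases, was at 2.32 and 6.11 CPM in TPMR1 against 38.2 and 27.6 CPM in TPM, and fell by 2.97 ± 0.52 (SE, log2; adjusted p = 0.0284, edgeR). The scaffold Ksr1 was at 6.12 and 9.95 CPM in TPK against 14.2 to 78.6 CPM in TPMCa and TPMR1, and was lower in TPK by a log2 fold change of -2.11 ± 0.53 (SE; adjusted p = 0.0436, edgeR).

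Of the other lists, Zdhhc9, the catalytic subunit of the enzyme that palmitoylates Hras and Nras, averaged (± SD, n = 2 for each model) 78.3 ± 21.3 CPM in TPM and 79.9 ± 16.4 CPM in TPK, against 36.6 ± 5.60 CPM in TPMCa and 29.2 ± 9.93 CPM in TPMR1. Zdhhc9 exceeded the mean of TPMCa and TPMR1 by 1.26 ± 0.30 (SE, log2; adjusted p = 0.0478, edgeR) in TPM and by 1.29 ± 0.30 (SE, log2; adjusted p = 0.0341, edgeR) in TPK. Among small GTPases outside the 9 genes, Rit1 was higher in TPK than that mean by 1.35 ± 0.31 (SE, log2; adjusted p = 0.0348, edgeR), and Gem and Rasl11b were lower, with log2 fold changes of -3.36 ± 0.63 (SE; adjusted p = 0.0182, edgeR) and -2.40 ± 0.52 (SE; adjusted p = 0.0287, edgeR). Each of the 14 calls of named list genes kept its sign without each library in turn, and each was lost without at least 2 of the 8, in particular without either TPK library for all calls against the mean in TPK, and without either TPM library for all other calls. The adjusted p then reached 0.0993 to 0.360 (edgeR).

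The tested genes whose log2 CPM was most like that of Hras, out of 10413 compared over the 8 libraries, were Psenen (Pearson r = 0.979), Cdkn2b (r = 0.979) and Daxx (r = 0.976). Psenen, a subunit of gamma-secretase, ran from 42.4 CPM in replicate 2 of TPMCa to 104 CPM in replicate 1 of TPK. Cdkn2b, which encodes the cell cycle inhibitor p15, was at 116 and 93.6 CPM in TPK and at 5.73 to 15.1 CPM in TPMCa and TPMR1. Such values are a description of 8 libraries that share model and depth.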

How the data were processed

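The 9 genes, the pathway and marker lists and the tests were chosen with earlier results of these data known. Reads of polyA RNA were trimmed by the sequencing company and aligned to mm10 with STAR, and the counter, its annotation and its strand setting are not given in the sources used here. The deposited values used were whole-number counts of reads per gene symbol. A second table, in which the authors divided the counts by DESeq2 size factors, was not used. The column headings call TPM by TPMS, and groups and replicate numbers came from the sample titles. The methods describe tumors of separate mice, but no label gives the mouse, so the p-values measure the spread between these libraries. Some engineered genes and 1 marker gene are not reported here.

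Counts were filtered with filterByExpr, scaled by TMM and fitted with glmQLFit of edgeR 4.0.16 (common dispersion 0.269) in R 4.3.3. The same steps were also run on simulated counts with known changes set in TPMCa alone. Those changes were all larger than any difference of Hras described here, so that run does not bear on differences of that size. Log2 CPM used a prior count of 2. Fold changes and their standard errors came from the quasi-likelihood fit. Lengths for RPKM were the union of exons in GENCODE M21 on GRCm38, the build of mm10, and 23309 symbols had one. Standard deviations are over 2 libraries. Named list genes were up to 3 per list and comparison with the largest absolute log2 fold change among those with an adjusted p under 0.05 and a mean log2 CPM of at least 3. Rasd1, named as one of 3 calls, lay below that level. Genes like Hras were the 3 with the highest correlation at that level. Promoters came from RefSeq, matched by symbol for 8 of the 9 genes. Alternatives used DESeq2 1.42.0, other scalings and filters, a term for the replicate number, the models compared alone, and TPMCa and TPMR1 as 1 group. Others used the threshold of the study, transcript length, and each library left out in turn. That threshold, applied here to the edgeR fit, was an unadjusted p under 0.05 with a log2 fold change above 1 or below -1.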

Additional observations from a re-analysis of the deposited data

Results flagged for a closer look

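The study treats TPMCa and TPMR1 together, so their 4 libraries were examined for a single library far from the other 3, by the gap to its nearest neighbour divided by the range. For 4 draws from 1 normal distribution, chance gives such a gap in about 1 of 20 groups. The values here were CPM without a log scale from different models, so that rate need not hold. In all, 9 genes were examined. Mras was at 45.5 CPM in replicate 1 of TPMR1, with a gap of 0.837 of the range, and Rasgrp1 was at 15.3 CPM in replicate 2 of TPMCa, with a gap of 0.875. The first library also held 5078 CPM of steroidogenic markers and the second 149 CPM of lymphocyte markers, and their part in these values was not tested.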

How the results depend on the processing

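Over all alternatives, the 432 values recomputed for the members were on the same side of the threshold with the same direction in 374 cases, newly past it in 27, no longer past it in 30 and turned in 1, namely Rasgrp1 in TPMCa against TPM (-1.42 without replicate 2 of TPMCa, up to 1.42 without replicate 1). For the named list genes, 136 of 221 stayed past the threshold, 85 did not and none turned. With the replicate block, 9 of the 14 named list calls were lost (adjusted p = 0.0511 to 0.0879, edgeR): Rgl1 in TPMCa and Rassf5 and Rin1 in TPMR1 against TPM, Zdhhc9 in TPM, and Ksr1, Tiam1, Zdhhc9, Rasl11b and Rit1 in TPK against the mean. Members called, each with the share of all genes called in parentheses, numbered in the test of any difference 5 by DESeq2 (26.5%), 2 with every gene of at least 1 count (7.48%), 0 with the replicate block (3.97%) and 0 to 2 without 1 library (1.01 to 19.1%). In TPMCa against TPM they numbered 3 by DESeq2 (14.2%), 3 at the threshold of the study (18.9%), 1 in a fit of only the models compared (8.35%) and 0 to 2 without 1 library (0.226 to 9.86%). In TPMR1 against TPM they numbered 3 by DESeq2 (15.9%), 3 at the threshold of the study (20.1%), 0 with library size alone (5.53%), 0 in a fit of only the models compared (0.353%) and 0 to 3 without 1 library (0.98 to 12.3%). In TPM against the joint mean of TPMCa and TPMR1 they numbered 3 by DESeq2 (17.3%), 2 with library size alone (8.71%), 2 at the threshold of the study (3176 of 15875 genes) and 0 to 3 without 1 library (2.72 to 12.3%). In TPK against that mean they numbered 1 with library size alone (13.5%), 1 in a fit of only the models compared (9.39%), 1 with TPMCa and TPMR1 as 1 group (12.5%) and 0 to 3 without 1 library (3.23 to 18.7%). In TPMR1 against TPMCa they numbered 1 by DESeq2 (4.46%), 1 at the threshold of the study (10.5%) and 0 to 1 without 1 library (0.0 to 8.24%). Of the 80 list genes, 76 were tested in the main fit, and the DESeq2 test and other filters can test a different number. In the test of any difference, 15 list genes were called by DESeq2 (26.5% of all genes). The count was 6 with every gene of at least 1 count (7.48%) and 1 with the replicate block (3.97%). It also moved when 1 library was left out. The cause of these shifts was not tested, and fits without a library rest on fewer samples, with the remaining library of that model assumed to vary like the others. Libraries of the same number did not deviate together (correlations between -0.0687 and -0.00819), so no pairing by number was seen. With 2 libraries per model, these correlations cannot exclude a processing step shared by libraries of the same number. With the replicate block, Hras was lost in the test of any difference (adjusted p = 0.0562, edgeR) and no other member call changed. The Hras share without 1 library was 43.4 to 52.2% in TPM, 33.6 to 35.5% in TPMCa, 37.3 to 59.5% in TPMR1 and 57.0 to 59.3% in TPK. With the longest transcript as length, Hras moved from 25.6 to 33.8 RPKM, Nras from 18.6 to 22.2, Nf1 from 2.92 to 3.89 and Rasa1 from 6.98 to 11.2. These moves were more than the SD pooled over the models. The SD of Nras in TPMR1 and that of Nf1 in TPMR1 and in TPMCa were larger than the move of that gene. Depth limits the lowest levels, those of Rasal1 (2 counts) and Rasgrp1 (7 counts) in replicate 1 of TPMR1.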
